A study of Mus musculus and Homo sapiens with 18 samples.

Results

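Genome-wide binding of catalytically inactive Cas9 (dCas9) was compared between the guides EMX1-sg1 and EMX1-sg3 in human 293FT cells. 293FT is an established embryonic kidney cell line. The comparison covers 2 of the 18 samples of the series, chosen by cell line and guide, each transfected with 20 ug of its single guide RNA (sgRNA) and precipitated with an anti-HA antibody. The labels title both libraries transient, give no amount of dCas9 for them, and do not say whether the cells came from more than 1 culture. The controls were 293FT cells with the treatment given as none, 1 anti-HA precipitate without sgRNA (no-sgRNA IP) and 1 input library without antibody. The labels do not say whether these cells carried dCas9. Each group held 1 library, so no difference between the guides carries a test. Intervals cover counting error, or the spread of peaks within 1 library, only.

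An sgRNA carries dCas9 to DNA that matches its spacer beside a short protospacer adjacent motif. Pairing starts next to that motif, in the seed, so sites with a partial match can hold the protein too. How many such sites a guide finds depends on its sequence and on how accessible they are in chromatin. EMX1, the gene both guides were made for, encodes a homeobox transcription factor of the developing forebrain. A peak here is a stretch of DNA called as enriched in the precipitate, and a peak score is the value the authors deposited with it.

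The 4 human lists give positions on hg19, the authors' score and a peak name with a running number. Every listed score was above 50, and read depth is unknown. The lists had been filtered by the authors, and the sources used here do not give the rule. No genome or annotation of hg19 was used here, so densities are over the span from the first base of each chromosome to the last peak of the 4 lists, 3045 Mb in all, gaps in the assembly included.

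EMX1-sg1 gave far more peaks than EMX1-sg3. The EMX1-sg1 list held 18042 peaks and the EMX1-sg3 list 853, a ratio of 21.2. The running numbers in the peak names differed far less, by a ratio of 1.28 over 12 chromosomes described further on. The no-sgRNA IP held 63 and the input 49. EMX1-sg1 peaks covered 23502 kb, or 0.772% of the span, and EMX1-sg3 peaks 589 kb, or 0.0193%. The ratio of covered length was 39.9, larger than that of the numbers, since the EMX1-sg1 peaks were also wider.

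EMX1-sg1 peaks were wider and more variable in width. Their median width was 1032 bp (95% interval 1022 to 1044), against 651 bp (628 to 670) for EMX1-sg3, a difference of 381 bp and a ratio of 1.59. The middle 50% of widths ran from 726 to 1655 bp for EMX1-sg1 and from 521 to 805 bp for EMX1-sg3. Peaks over 2 kb made up 16.8% of the EMX1-sg1 list (3036 peaks, 16.3 to 17.4%, a Clopper-Pearson exact interval at 95%) and 0.586% of the EMX1-sg3 list (5 peaks, 0.191 to 1.36%). EMX1-sg1 had 832 peaks over 3 kb and EMX1-sg3 had 0, which allows a share of up to 0.432% in the EMX1-sg3 list. Median widths in the controls were 599 bp (573 to 624) for the no-sgRNA IP and 579 bp (566 to 635) for the input. The EMX1-sg3 median was 52 bp above that of the no-sgRNA IP. The lists also differed in score, with a median of 83.18 for EMX1-sg3 and 58.55 for the no-sgRNA IP, whose highest was 90.91. EMX1-sg3 peaks scored from 50 to below 75 had a median width of 586 bp (570 to 601), no wider than the no-sgRNA IP peaks. With 1 library each, whether EMX1-sg3 and control widths differ was not tested.

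**Figure D1:**
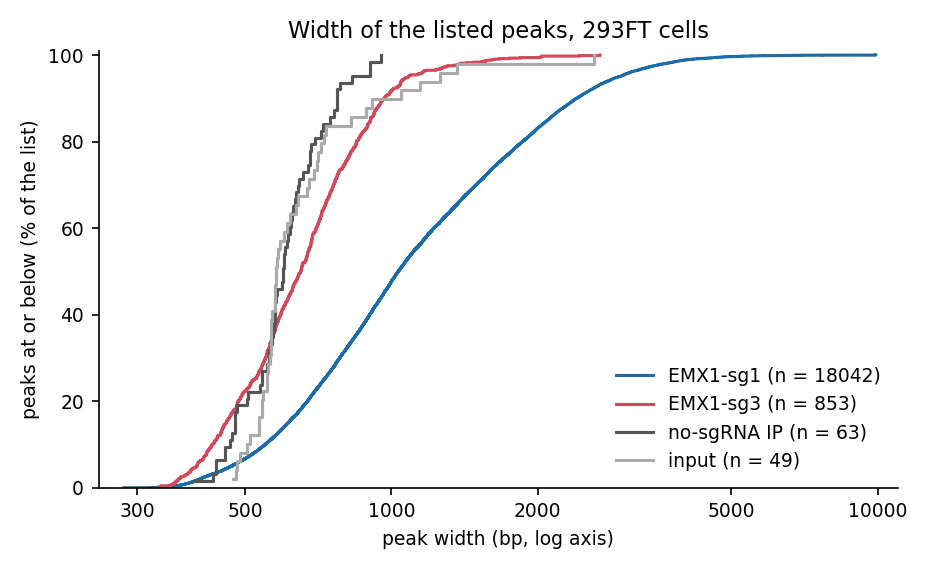
Cumulative share of peaks (%) by width (bp, log axis) in the EMX1-sg1, EMX1-sg3, no-sgRNA IP and input lists of 293FT cells; each line is 1 library. The EMX1-sg1 line lies to the right of the others above about 600 bp, with a median of 1032 bp against 651, 599 and 579 bp.

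The difference in width was present at every level of score and grew with it. Among peaks scored from 50 to below 75, the median width was 852 bp for EMX1-sg1 (7179 peaks) and 586 bp for EMX1-sg3 (352 peaks), a ratio of 1.45. From 100 to below 150 the medians were 1160 and 687 bp (ratio 1.69). From 150 to below 250 they were 1546 and 809.5 bp (ratio 1.91). At 250 and above they were 2142 bp (1178 peaks) and 773 bp (63 peaks), a ratio of 2.77. The EMX1-sg3 median was thus lower in the last window than in the one before (706 to 990 against 731 to 860 bp). Scores of the 2 libraries may not be on 1 scale, since depth is unknown. EMX1-sg1 scores also stepped with the peak numbering, as described further on, so its high windows draw unevenly on the chromosomes. Within each list wider peaks scored higher, with a Spearman rho of 0.39 across the 18042 EMX1-sg1 peaks and 0.30 across the 853 EMX1-sg3 peaks. These are descriptions across peaks of 1 library, and both values come from the same reads.

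The widest EMX1-sg1 peaks lay at chr19:5689908-5699814 (9907 bp, score 172.88), chr5:92914340-92922324 (7985 bp, 210.57) and chr10:77158050-77165838 (7789 bp, 640.44). By score the first of these ranked only 2380 of 18042. The widest EMX1-sg3 peaks lay at chr1:224199992-224202676 (2685 bp, score 119.58), chr16:89626254-89628688 (2435 bp, 127.20) and chr7:27195175-27197213 (2039 bp, 360.89). In both lists the widest peaks were thus not the 5 strongest.

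EMX1-sg1 peaks lay close together and EMX1-sg3 peaks mostly far apart. The median distance from a peak's centre to the nearest other centre of the list was 15.1 kb (14.7 to 15.6) for EMX1-sg1 and 927 kb (843 to 1050.1) for EMX1-sg3, a ratio of 61.5. The mean spacing, the span divided by the number of peaks, was 169 and 3570.2 kb, a ratio of 21.2. The median nearest distance was therefore 8.92% of the mean spacing for EMX1-sg1 and 26.0% for EMX1-sg3. The ratio of the median distances was thus larger than that of the mean spacings. Another peak lay within 10 kb of 40.0% of EMX1-sg1 peaks (7222 peaks, 39.3 to 40.7%) and of 0.938% of EMX1-sg3 peaks (8 peaks, 0.406 to 1.84%). Within 100 kb the shares were 84.8% and 8.09%, and within 1000 kb 99.2% and 51.6%. In the no-sgRNA IP 0 of 63 peaks had a neighbour within 100 kb, and in the input 2 of 49 did.

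At equal numbers the order was the same. The 853 strongest EMX1-sg1 peaks had a median nearest distance of 166 kb (137 to 189), 5.59 times shorter than that of the 853 EMX1-sg3 peaks, and 40.4% of them had a neighbour within 100 kb. That ratio depends on which strong peaks are taken, since EMX1-sg1 scores stepped with the peak numbering, as described further on. On the 12 chromosomes that such steps do not touch, the 473 strongest EMX1-sg1 peaks had a median of 297 kb (247 to 357), against 1019 kb (887 to 1178) for the 473 EMX1-sg3 peaks there, a ratio of 3.43.

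**Figure D2:**
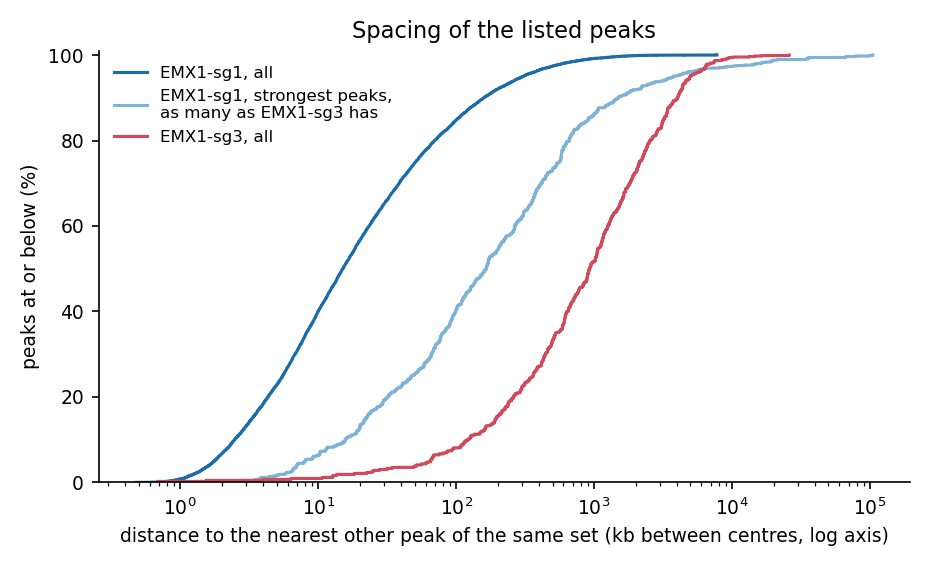
Cumulative share of peaks (%) by distance to the nearest other peak of the same set (kb between centres, log axis), for all EMX1-sg1 peaks, the 853 strongest EMX1-sg1 peaks and all EMX1-sg3 peaks. The medians are 15.1, 166 and 927 kb, and the EMX1-sg3 line lies to the right of that of the strongest EMX1-sg1 peaks except at the few shortest and the longest distances.

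Chains of peaks, in which each centre lay within 10 kb of the next, were frequent in the full EMX1-sg1 list and rare for EMX1-sg3. The 18042 EMX1-sg1 peaks fell into 10820 lone peaks and 2664 chains, of which 224 held 5 or more peaks and 12 held 10 or more. EMX1-sg3 had 845 lone peaks and 4 chains of 2. At equal numbers the chains were short: the 853 strongest EMX1-sg1 peaks formed 27 chains, and on the 12 chromosomes the 473 strongest formed 4 against 2 for EMX1-sg3, none of them longer than 2 peaks. The longest EMX1-sg1 chain, at chr16:1143911-1201194, had 15 peaks in 57.3 kb, and peaks covered 39.7% of it. Chains of 14 and 13 peaks lay at chr22:50688724-50750984 and chr11:63766530-63829347. In the chain on chromosome 16 the scores ran from 61.92 to 205.16, all far below the highest of the list. The closest EMX1-sg1 neighbours, at chr1:212952520-212953014 and chr1:212953039-212953443, had centres 474 bp apart, and the closest EMX1-sg3 neighbours, at chr9:127422568-127423271 and chr9:127423274-127423932, 684 bp apart.

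Local density separated the guides further. In fixed bins of 1 Mb (3060 bins), EMX1-sg1 left 26.1% empty (800 bins, 24.6 to 27.7%) and EMX1-sg3 77.0% (2357 bins, 75.5 to 78.5%). This share depends on the number of peaks, and at equal numbers the order turned. The 853 strongest EMX1-sg1 peaks left 86.9% of bins empty (85.6 to 88.0%). On the 12 chromosomes at 473 peaks each, EMX1-sg1 left 83.6% empty and EMX1-sg3 77.9%. The full EMX1-sg1 list reached 100 peaks in 1 bin and had 10 or more in 502 bins, which held 69.2% of its peaks. EMX1-sg3 had 1 peak in 567 bins, 2 in 125, 3 in 8 and 4 in 3, and never more. The variance of the bin counts was 20.3 times their mean for EMX1-sg1 and 1.11 times for EMX1-sg3. For the 853 strongest EMX1-sg1 peaks it was 3.85 times, and on the 12 chromosomes at 473 peaks each 2.45 times against 1.16 times. The fullest 10% of bins held 55.8% of all EMX1-sg1 peaks and 53.5% of the EMX1-sg3 peaks, but this share depends on the number of peaks in a list. At equal numbers it was 88.7% for the 853 strongest EMX1-sg1 peaks. On the 12 chromosomes at 473 peaks each it was 76.3% for EMX1-sg1 and 55.2% for EMX1-sg3.

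The fullest EMX1-sg1 bins were chr9:139000001-140000000 (100 peaks), chr19:1000001-2000000 (99) and chr19:3000001-4000000 (97). Of these, EMX1-sg3 had 1 peak in the second and none in the others. In the chromosome 9 bin the EMX1-sg1 peaks covered 157 kb and the median step between neighbouring centres was 5.31 kb. The 3 EMX1-sg3 bins with 4 peaks were chr21:36000001-37000000, chr6:116000001-117000000 and chr7:27000001-28000000, where EMX1-sg1 had 3, 1 and 5. The highest median score of the 3 was in the chromosome 7 bin, at 175.22, which also held the third widest EMX1-sg3 peak. Peaks of both guides were wider in bins with more EMX1-sg1 peaks. For EMX1-sg1 the median width was 853 bp (823 to 894) in bins with 1 to 4 EMX1-sg1 peaks and 1246 bp (1211 to 1275) in bins with 50 or more. For EMX1-sg3 it was 633 bp (587 to 658) and 871 bp (725 to 1288) in the same classes, the latter from 13 peaks. In bins without an EMX1-sg1 peak it was 604 bp (555 to 635). Those 13 peaks also had a higher median score, 138.99 against 80.59 in bins with 1 to 4. Whether the EMX1-sg3 widths go with score or with EMX1-sg1 density was not tested.

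EMX1-sg1 peaks were unevenly spread over the chromosomes, and EMX1-sg3 peaks less unevenly. Per Mb of span, EMX1-sg1 ranged from 1.89 peaks on chromosome 13 (1.64 to 2.15, exact Poisson interval) to 28.7 on chromosome 19 (27.3 to 30.1), a 15.2-fold range over 23 chromosomes. The order below chromosome 19 was 17 (20.1), 22 (16.5), 16 (10.3) and 20 (9.33), and the lowest after chromosome 13 were X (2.20) and 18 (2.51). Intervals overlapped in 16 of 22 pairs of neighbours in this order, those of 16 with 20, 13 with X and X with 18 among them. Chromosomes 17, 19 and 22 are known for their high gene density and 13, 18 and X for a low one. EMX1-sg3 ranged from 0.167 on chromosome 18 (0.0887 to 0.285) to 0.431 on chromosome 17 (0.300 to 0.600), a 2.59-fold range, and the intervals of these ends did not overlap. In the EMX1-sg3 order the intervals overlapped in 22 of 22 such pairs, but with 12 to 84 peaks per chromosome they were wide. The interval of the EMX1-sg3 share of peaks lay above the share of span on chromosomes 6 (6.35 to 10.1% against 5.61%) and 17 (2.87 to 5.66% against 2.66%). It lay below on X (2.29 to 4.85% against 5.07%) and included the share of span on the other chromosomes. On chromosome 19 EMX1-sg3 had 0.271 peaks per Mb, close to its mean of 0.280. The number of EMX1-sg1 peaks per EMX1-sg3 peak thus ran from 9.43 on chromosome 13 to 106 on chromosome 19.

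**Figure D3:**
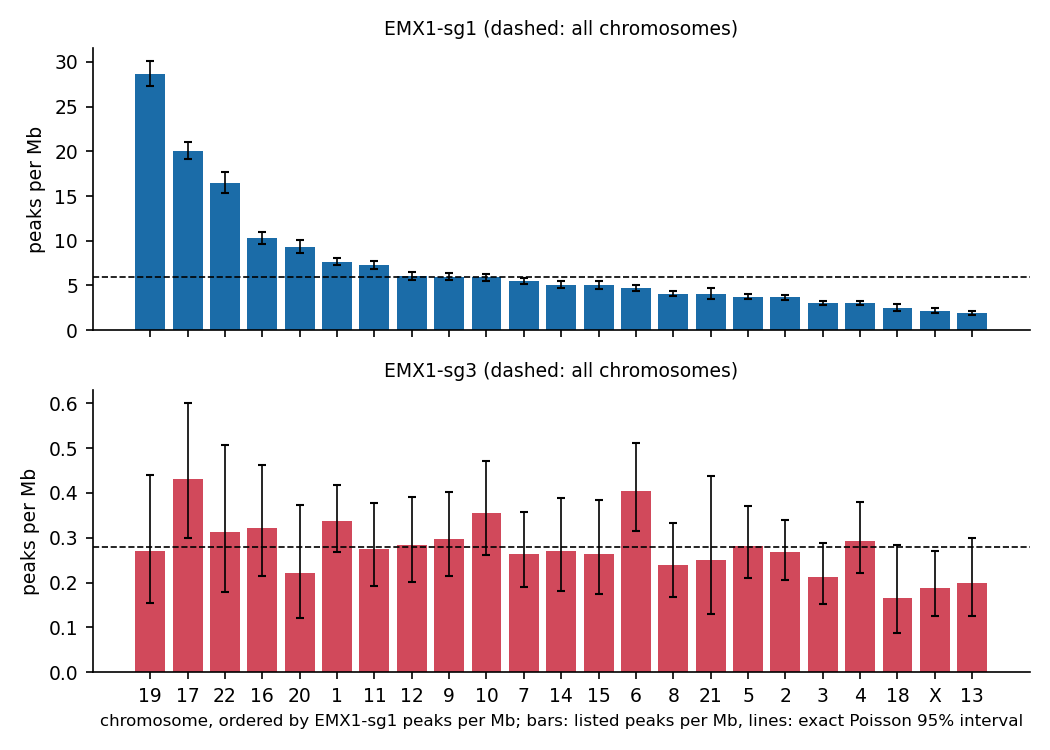
Peaks per Mb of span on 23 chromosomes for EMX1-sg1 (upper) and EMX1-sg3 (lower), ordered by the EMX1-sg1 value; bars are 1 library each, lines exact Poisson 95% intervals, and the dashed line the value over all chromosomes. EMX1-sg1 falls from 28.7 on chromosome 19 to 1.89 on chromosome 13, while EMX1-sg3 stays between 0.167 and 0.431.

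Chromosomes 17, 19 and 22 together make up 6.28% of the span and held 23.1% of EMX1-sg1 peaks (4167 peaks, 22.5 to 23.7%) and 7.85% of EMX1-sg3 peaks (67 peaks, 6.14 to 9.87%). They are the densest chromosomes of EMX1-sg1, so its high share there follows from that choice. Gene density was not measured here. The last 5 Mb before the end of each chromosome's span, 3.94% of the whole, held 14.2% of EMX1-sg1 peaks (13.7 to 14.8%) and 3.52% of EMX1-sg3 peaks (2.39 to 4.98%). Over the 23 chromosomes the densities of the guides had a Spearman rho of 0.60 and a Pearson r of 0.40, as a description. For EMX1-sg1 the median nearest distance was shortest on the densest chromosome, 19 (6.46 kb), and longest on the sparsest, 13 (78.6 kb), but between these it did not keep to the order of density. Chromosomes 9 and 10, with 5.96 and 5.89 peaks per Mb, had medians of 9.55 and 25.3 kb. EMX1-sg3 had its closest spacing on chromosome 22 (329 kb) and its widest on X (2205 kb). Median widths varied less, from 826 bp (chromosome 18) to 1162 bp (chromosome 17) for EMX1-sg1 and from 562 bp (chromosome 13) to 732 bp (chromosome 10) for EMX1-sg3.

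The peak names show how far the listed spread differs from that of the numbering. On chromosomes 2 to 9, 20 to 22 and X the numbers rose with position without a break in both lists, apart from the EMX1 peak of EMX1-sg1. There EMX1-sg1 listed 7817 peaks over 10747 numbers (72.7%) and EMX1-sg3 473 peaks over 8373 numbers (5.65%). The ratio of the guides on these chromosomes was 16.5 in listed peaks and 1.28 in numbers. By chromosome the ratio in numbers ran from 1.02 (chromosomes 3 and 6) to 2.44 (chromosome 21), and that in listed peaks from 10.3 (chromosome 4) to 52.7 (chromosome 22). By chromosome the listed share ran from 67.5% (chromosome 5) to 80.0% (chromosome 9) for EMX1-sg1, and from 2.71% (chromosome 22) to 11.0% (chromosome 21) for EMX1-sg3. The numbers themselves were densest on chromosome 22 in both lists, at 21.4 per Mb for EMX1-sg1 and 11.6 for EMX1-sg3, over a 6.96-fold and a 5.09-fold range of chromosomes. In listed peaks the range was 7.50-fold for EMX1-sg1 and 2.15-fold for EMX1-sg3. Whether the numbers missing from a list are peaks that a filter removed was not tested. Numbers run from the lowest to the highest listed on a chromosome, so numbers beyond these are not counted.

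EMX1-sg1 scores stepped at several of the breaks in its numbering, which bears on rankings by score over the whole list. With the chromosomes in text order (1, 10 to 19, 2, 20 to 22, 3 to 9, X, Y), its numbers rose with position in 10 stretches, separated by falls or by rises over 500. At the breaks the numbers went on from close to 10, 100, 1000 or 10000. The stretch from chr11:60114817 to chr14:104009583, numbered 10007 to 16380, had a median score of 135.13 (129.76 to 143.59), and the stretch after it, up to chr17:43674158, 93.18 (90.92 to 95.93). The long stretch from there to the end of the list, which takes in chromosomes 2 to 9 and X, had 78.11 (77.19 to 79.05), and the one before chr11:60114817 had 78.71 (77.15 to 80.28). Within chromosome 11 the last 50 peaks before the break had a median score of 76.51 with 0 above 200, and the next 50 had 152.16 with 15 above 200. Chromosome 1 held a similar step at the break before chr1:9648154, from 76.22 to 153.78, and the stretch that began there (209 peaks, up to chr1:18236972) had a median of 147.84 (128.57 to 158.30). Not every break had a step: at that before chr1:29610738 the medians were 88.50 and 81.42, with 3 and 4 peaks above 200. Median widths lay between 995 and 1063 bp over the last 4 stretches, and the stretch of 209 peaks on chromosome 1 had 1139 bp. Among the 50 peaks on each side, the median width rose from 901 to 1086 bp at the break before chr11:60114817. At that before chr1:9648154 it rose from 919.5 to 1067 bp. It also rose, from 958.5 to 1106.5 bp, at the break before chr14:104094222, where the median score fell from 128.94 to 92.06. The listed share of numbers was 32.0% in the stretch from chromosome 11 to 14 and 30.2% in the stretch of 209 peaks on chromosome 1, against 51.8% in the stretch that ends on chromosome 17 and 74.9% in the last.

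The stretch from chromosome 11 to 14 held 11.3% of EMX1-sg1 peaks but 59.2% of the 853 strongest (505 peaks), and that of 209 peaks on chromosome 1 held 1.16% and 4.57% (39 peaks). Chromosome 12 alone gave 202 of these 853 and chromosome 3, with 605 listed peaks against 804, gave 4. EMX1-sg3 numbers broke as well, into 8 stretches, but in the 3 of these with over 100 peaks the median scores lay between 80.67 and 84.75 with overlapping intervals. Among the 10 peaks on each side, the median score fell from 148.63 to 90.08 at the break before chr1:63212054. It fell from 142.4 to 85.7 at that before chr19:13157391. At the other breaks compared it changed less, in both directions. So few peaks on a side cannot tell a step from the spread of scores. The EMX1-sg1 steps on chromosomes 1 and 11 lie within a chromosome, and what the numbering marks was not tested.

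**Figure D4:**
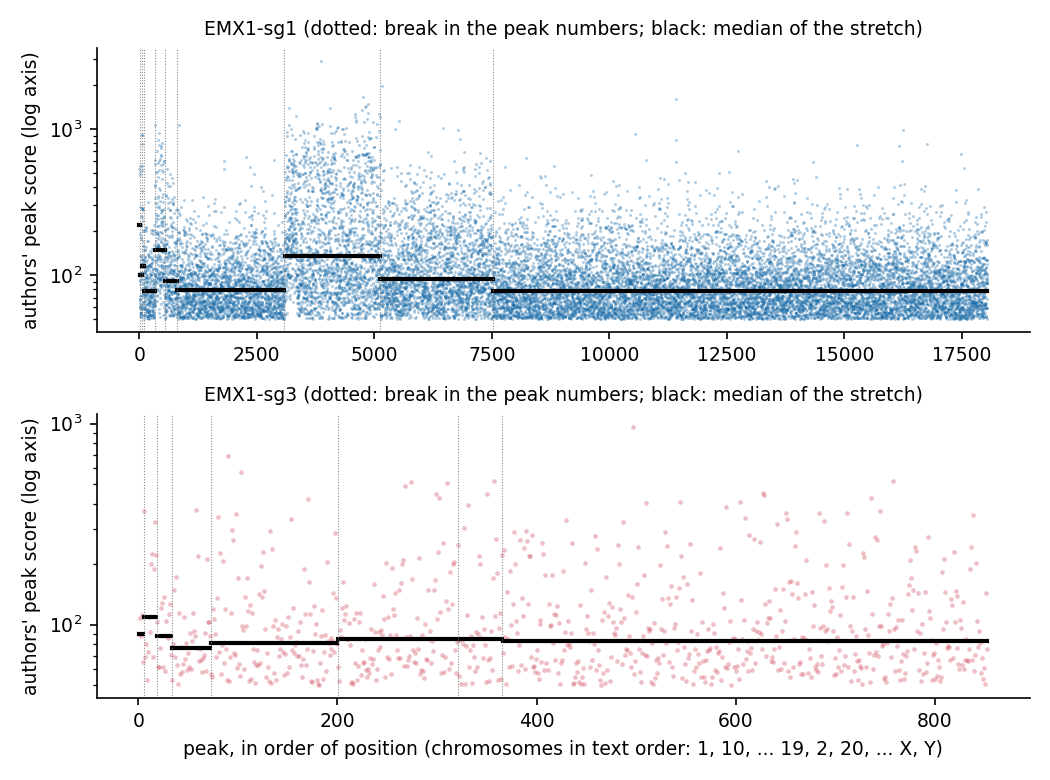
Authors' peak score (log axis) of every listed peak against its place in the list by position, for EMX1-sg1 (upper) and EMX1-sg3 (lower), with the peak at EMX1 left out; dotted lines mark breaks in the peak numbers and black lines the median of each stretch. EMX1-sg1 medians step from 78.71 to 135.13, 93.18 and 78.11 over its last 4 stretches, and EMX1-sg3 shows no such steps in its long stretches.

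The strongest EMX1-sg1 peaks followed that pattern. Of its 5 highest scores, 3 lay in the stretch from chromosome 11 to 14, at chr12:31269995-31273523 (2927.50), chr14:24834515-24839337 (1651.22) and chr14:64969069-64972770 (1487.37), and chr14:104680947-104682755 (1967.75) lay in the next. The fourth, chr20:47131030-47133270 (1589.72), was in the long last stretch and so scored high among peaks whose median was 78.11. The 5 strongest EMX1-sg3 peaks were at chr3:43197021-43197845 (966.01), chr10:12237092-12238931 (689.99), chr10:31288106-31288585 (573.93), the EMX1 position (565.18) and chr8:42071365-42072404 (517.07). Apart from the EMX1 position, the nearest EMX1-sg1 peak to these lay between 6.99 and 60.8 kb away. Median scores over the whole lists were alike, at 84.41 (83.63 to 84.91) for EMX1-sg1 and 83.18 (79.06 to 87.14) for EMX1-sg3. On the 12 chromosomes they were 77.90 and 81.66, so which guide is higher turns with the chromosomes taken.

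At EMX1 the peaks of the guides nearly coincided. No hg19 annotation was used here, so the name EMX1 for this position was not checked against gene coordinates. It holds the peak that stands apart in both lists, as described under the other observations. EMX1-sg3 had chr2:73160459-73161547 (1089 bp, score 565.18) and EMX1-sg1 chr2:73160521-73161509 (989 bp, 473.91), with centres 12 bp apart and the EMX1-sg1 peak wholly inside the other. The surroundings differed. For EMX1-sg1 another peak, chr2:73161706-73163102 (score 79.82), began 196 bp beyond the EMX1 peak, and the next on the other side was 108 kb away. For EMX1-sg3 the nearest peaks were 752 kb and 2840.4 kb away. The EMX1 peak ranked 4 of 853 for EMX1-sg3. For EMX1-sg1 it ranked 398 of 18042, and 23 of 10528 when ranked together with only the stretch of numbers around its position. Its own number stands outside the order of that stretch, and whether its score is on the scale of that stretch was not tested. Its width was above that of 95.2% of EMX1-sg3 peaks and of 46.8% of EMX1-sg1 peaks.

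The only other overlap of the guides was on chromosome 10, between chr10:60028261-60029867 for EMX1-sg3 (score 170.71) and chr10:60026201-60029291 for EMX1-sg1 (231.72). There 1031 bp were shared, 64.2% of the EMX1-sg3 peak and 33.4% of the EMX1-sg1 peak, and the centres were 1318 bp apart. Centres of 4 EMX1-sg3 peaks lay within 1 kb of an EMX1-sg1 centre (0.469%, 0.128 to 1.20%), 81 within 10 kb (9.50%, 7.61 to 11.7%) and 469 within 100 kb (55.0%, 51.6 to 58.4%). The median distance from an EMX1-sg3 peak to the nearest EMX1-sg1 peak was 84.0 kb (74.4 to 94.8), and in the other direction it was 973 kb (950 to 992). These counts depend on the density of the lists: EMX1-sg1 peaks covered 0.772% of the span, at a mean spacing of 169 kb. What unrelated lists of these densities would give was not analysed, so the counts show neither a shared nor a separate placement. Whether the authors' filter removed peaks common to the guides is not known.

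At the scale of 1 Mb EMX1-sg3 peaks were more frequent where EMX1-sg1 had some peaks than where it had none. EMX1-sg3 had 0.140 peaks per bin (0.115 to 0.168) in the 800 bins without an EMX1-sg1 peak, 0.251 (0.224 to 0.279) where EMX1-sg1 had 1 to 4, 0.419 (0.360 to 0.484) for 5 to 9 and 0.502 (0.419 to 0.596) for 10 to 19. Beyond that EMX1-sg3 was no denser, with 0.419 (0.334 to 0.518) for 20 to 49 and 0.310 (0.165 to 0.529) in the 42 bins with 50 or more. Those 42 bins held 15.4% of EMX1-sg1 peaks and 1.52% of EMX1-sg3 peaks (13 peaks). Of the 3060 bins, 605 had peaks of both guides, 1655 of EMX1-sg1 only, 98 of EMX1-sg3 only and 702 of neither. Bins without assembled sequence are among the empty ones, and their number was not analysed here. Over all bins the counts had a Spearman rho of 0.21 and a Pearson r of 0.11, as a description.

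**Figure D5:**
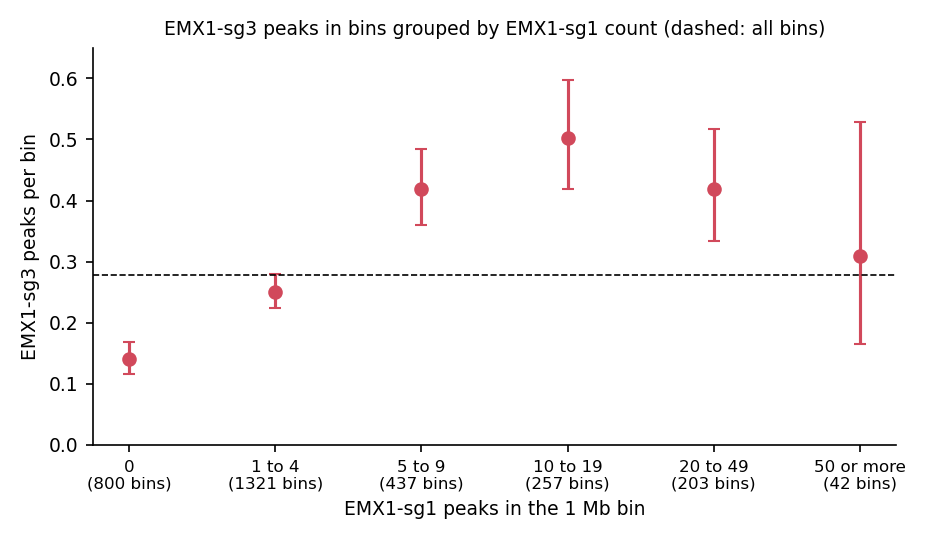
EMX1-sg3 peaks per 1 Mb bin (points, with exact Poisson 95% intervals) for bins grouped by their number of EMX1-sg1 peaks; the dashed line is the value over all bins. The value rises from 0.140 in bins without an EMX1-sg1 peak to 0.502 at 10 to 19 and is 0.310 in the 42 bins with 50 or more.

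The control lists were too short to show whether control peaks lie apart from those of the guides. Only 63 no-sgRNA IP peaks and 49 input peaks were listed, and no peak of either guide had its centre within 1 kb of a control centre. The smallest distances to the no-sgRNA IP were 5307 bp for EMX1-sg1 and 61224 bp for EMX1-sg3, and to the input 6176 and 17844 bp. The strongest no-sgRNA IP peak, chr3:98062744-98063424 (90.91), was 494 kb from the nearest EMX1-sg1 peak and 712 kb from the nearest EMX1-sg3 peak. The strongest input peak, chr16:33973470-33976080 (231.35), was 681 and 2742 kb away. With so few control peaks listed, these distances do not give the background under the guides' peaks. A smallest distance also depends on how many peaks the guide has, and whether the filter removed peaks near control peaks is not known.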

How the data were processed

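The submitters' processing notes name Bowtie, without a version, and the human build hg19. Peak names in the deposited lists begin with MACS, a peak caller. The sources used here give neither its settings and control library nor the filter rule. The authors' peak score, deposited in a column without a name, was used to rank, group or filter peaks within a list, and the other measures are positions and widths in bp. The sixth column was not used as a measurement. Starts, read as counted from 0, are printed as counted from 1. The lists hold no read numbers, so depth is unknown.

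Widths, distances between centres, counts in fixed 1 Mb bins and counts per chromosome were computed with Python 3.11.15, pandas 2.3.3 and scipy 1.17.1. Medians have order-statistic binomial intervals, shares exact Clopper-Pearson intervals and counts exact Poisson intervals, all at 95% and for counting error only. Measures were checked on simulated peaks with known answers. No test was made, with 1 library per guide. Named positions are the 5 strongest and 3 widest peaks of each guide, its closest neighbours and 3 fullest bins, its densest and sparsest chromosomes, overlaps of at least 1 bp, and the strongest control peaks. The samples, measures and naming rule were chosen with earlier results of these data known. The stretches of numbers, the 12 chromosomes, the chains, the chromosome ends, the grouping of chromosomes 17, 19 and 22, the score windows and the classes of bins were chosen after the lists were seen. The planned sequence and annotation measures were not run. Alternatives were a score of at least 100, merging within 500 bp, edge distances, bins of 0.5 and 5 Mb, and stricter overlap.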

Additional observations from a re-analysis of the deposited data

How the results depend on the processing

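In the 21 comparisons of the guides made under alternatives for number, width, spacing and bins, the guide with the higher value was the same as reported in 21. All of these keep the large difference in number of peaks, which largely sets the direction for spacing and bins. The agreement is therefore no support for those measures. Lists of equal numbers and the median score were not among the 21. At equal numbers the order in empty bins turned, and on the 12 chromosomes that in median score did. With a score of at least 100, EMX1-sg1 and EMX1-sg3 had 6675 and 308 peaks, median widths of 1436 and 738.5 bp, median nearest distances of 35.1 and 2265 kb, and 48.9% and 90.6% of bins empty. There EMX1-sg1 had 22.1% of peaks within 10 kb of another, at most 51 in a bin and 8.03% on chromosome 19. Merging within 500 bp gave EMX1-sg1 a width of 1045 bp, a distance of 16.8 kb and 36.7% within 10 kb. Between edges its distance was 13.8 kb, with 43.1% within 10 kb. Bins of 0.5 Mb were empty in 41.4% and 87.4% and held at most 63 EMX1-sg1 peaks; bins of 5 Mb were empty in 5.47% and 33.6% and held at most 417 and 7. Bin size sets these values by construction. On the 12 chromosomes in 1 stretch of numbers, an alternative chosen after seeing the data, EMX1-sg1 had a width of 1004 bp, a distance of 20.2 kb, 34.9% within 10 kb and a median score of 77.90, and its strongest peaks a distance of 297 kb; the cause was not tested. With 50% of both peaks shared, or centres within 200 bp, 1 position was shared in place of 2, the one at EMX1. Of all alternative values, 30 moved out of the interval of the reported value, or for counts beyond 1.5 times. The other 21 alternative values stayed within these limits. No paired analysis was possible because each guide has 1 library, so no library could be left out either. Depth is unknown, and how it limits the number of peaks of either guide was not tested.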

Other observations

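In both guide lists the peak at EMX1 stands apart in the file. It is on line 1, ahead of all other peaks, and its sixth column holds 2, where that of the other 18041 EMX1-sg1 peaks and 852 EMX1-sg3 peaks holds 3. For EMX1-sg1 its number, 20326, also lies outside the order: the peaks on either side are numbered 13721 and 13722, with no number left between them. For EMX1-sg3 its number, 11382, lies between those of its neighbours, 11376 and 11432. Peak names also recurred far more often for EMX1-sg1, where 4036 names had been used higher up in the list by position, than for EMX1-sg3, where 17 had. The sources used here do not say what the sixth column or the recurring names stand for.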
